A study of Oryctolagus cuniculus with 12 samples.

Results

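The 10 genes described here build the lipid seal of the outer epidermis, and they were followed across normal rabbit ear skin and hypertrophic scar, a raised scar with excess collagen. They are ELOVL4, CERS3, PNPLA1, NIPAL4, ALOX12B, ALOXE3, SDR9C7, UGCG, ABCA12 and SULT2B1 (also written SULT2B1B). The genes were chosen by name for their part in making ceramides and other barrier lipids. No measured value was in the rule, but earlier results of these data were known when they were chosen. Each name matched 1 of the 29587 genes in the table, and 10 of 10 passed the filter for testing, a mean FPKM of at least 1. FPKM is a count of sequenced fragments corrected for gene length and library size. The library sizes behind the values used here were not the read totals, as described under the processing. ABCA12, ALOX12B, CERS3, PNPLA1, NIPAL4 and SULT2B1 were also picked by the study as hub genes from these same samples, so their counts below are not independent evidence of a direction.

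Bulk RNA-seq covered 12 samples in 4 groups of 3, all from female rabbits of WT genotype aged 10 to 12 weeks. The normal skin group (NS) was never wounded or treated. In the other groups, 4 wounds of 7 mm were cut in each ear down to the cartilage, and the resulting lesions were left untreated (HS), covered with 1 patch of drug-loaded MNs each, or injected with 120 μg of 5-Fu in 0.1 mL each. MNs are microneedles, here carrying a 5-Fu derivative in their tips, and 5-Fu (5-fluorouracil) blocks DNA synthesis in dividing cells. Both treatments were given on days 22, 29 and 36 after wounding, and tissue was taken on day 43. The groups held 3 rabbits each, a drug-free MNs group was not analysed here, and the tissue was the whole thickness of the ear. A sample therefore mixed epidermis of both faces with dermis and cartilage, and fewer cells of a type and less RNA per cell cannot be told apart in it. Each sample had between 10521472 and 14043667 reads on genes, and the 10 genes had between 49 and 678 reads each in a sample.

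The outermost skin layer is kept watertight by stacked sheets of ceramide, cholesterol and free fatty acid between dead, flattened keratinocytes. Differentiating keratinocytes make a special acylceramide from an extremely long fatty acid, pack it with other lipids into lamellar bodies and release it at the boundary with the horny layer. There the acylceramide is oxidised and attached to the protein shell of the cell. Inherited loss of most of these enzymes causes ichthyosis, in which the skin is scaly and leaks water.

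ELOVL4 lengthens the fatty acid, CERS3 joins it to a sphingoid base, and PNPLA1 adds linoleic acid to give acylceramide. NIPAL4, also called ichthyin, is a keratinocyte membrane protein needed for normal acylceramide metabolism. ALOX12B and ALOXE3 are lipoxygenases that oxidise the linoleic acid in turn, and SDR9C7 is a dehydrogenase that acts on their product. UGCG puts glucose on ceramide for transport, ABCA12 carries the lipid into lamellar bodies, and SULT2B1 makes cholesterol sulfate.

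The table places ALOXE3 (ENSOCUG00000029634) at bases 11126276 to 11149810 of chromosome 19 and ALOX12B (ENSOCUG00000005959) at bases 11157840 to 11168556, both on the plus strand. They are neighbours, 8029 bases apart, with 0 other genes of the table starting between them. PNPLA1 (ENSOCUG00000008628, 26291961 to 26338670, plus strand) and ELOVL4 (ENSOCUG00000005334, 66859748 to 66894552, minus strand) both lie on chromosome 12. ABCA12 lies on chromosome 7 (ENSOCUG00000017926, 156254624 to 156507854, minus strand), NIPAL4 on chromosome 3 (ENSOCUG00000001234, 38856000 to 38913494, plus strand) and UGCG on chromosome 1 (ENSOCUG00000014366, 1393591 to 1431530, minus strand). CERS3 (ENSOCUG00000003828), SULT2B1 (ENSOCUG00000012131) and SDR9C7 (ENSOCUG00000003423) lie on 3 scaffolds not assigned to a chromosome. The genome build behind these positions is not given in the sources used here.

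Levels in normal skin spanned more than an order of magnitude. On the FPKM scale, which is per length, SULT2B1 was highest in NS at 34.2 ± 6.65 (mean ± SD, n = 3), and PNPLA1 was lowest at 2.18 ± 0.868. Between them came ALOX12B at 19.3 ± 9.39, ELOVL4 at 16.1 ± 4.36, CERS3 at 14.4 ± 6.44, NIPAL4 at 10.8 ± 2.90, UGCG at 10.3 ± 1.70, ALOXE3 at 8.99 ± 3.63, SDR9C7 at 6.13 ± 1.83 and ABCA12 at 2.65 ± 0.732. From ALOX12B down to SDR9C7 each neighbouring pair in this order differed by less than the spread between samples, as did ABCA12 and PNPLA1. PNPLA1 was the lowest and ABCA12 the next lowest in each of the 4 groups. ALOX12B, in contrast, ranked 2 of 10 in NS, 7 in HS and 5 in both treated groups, while ELOVL4 ranked 1 in HS.

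**Figure D1:**
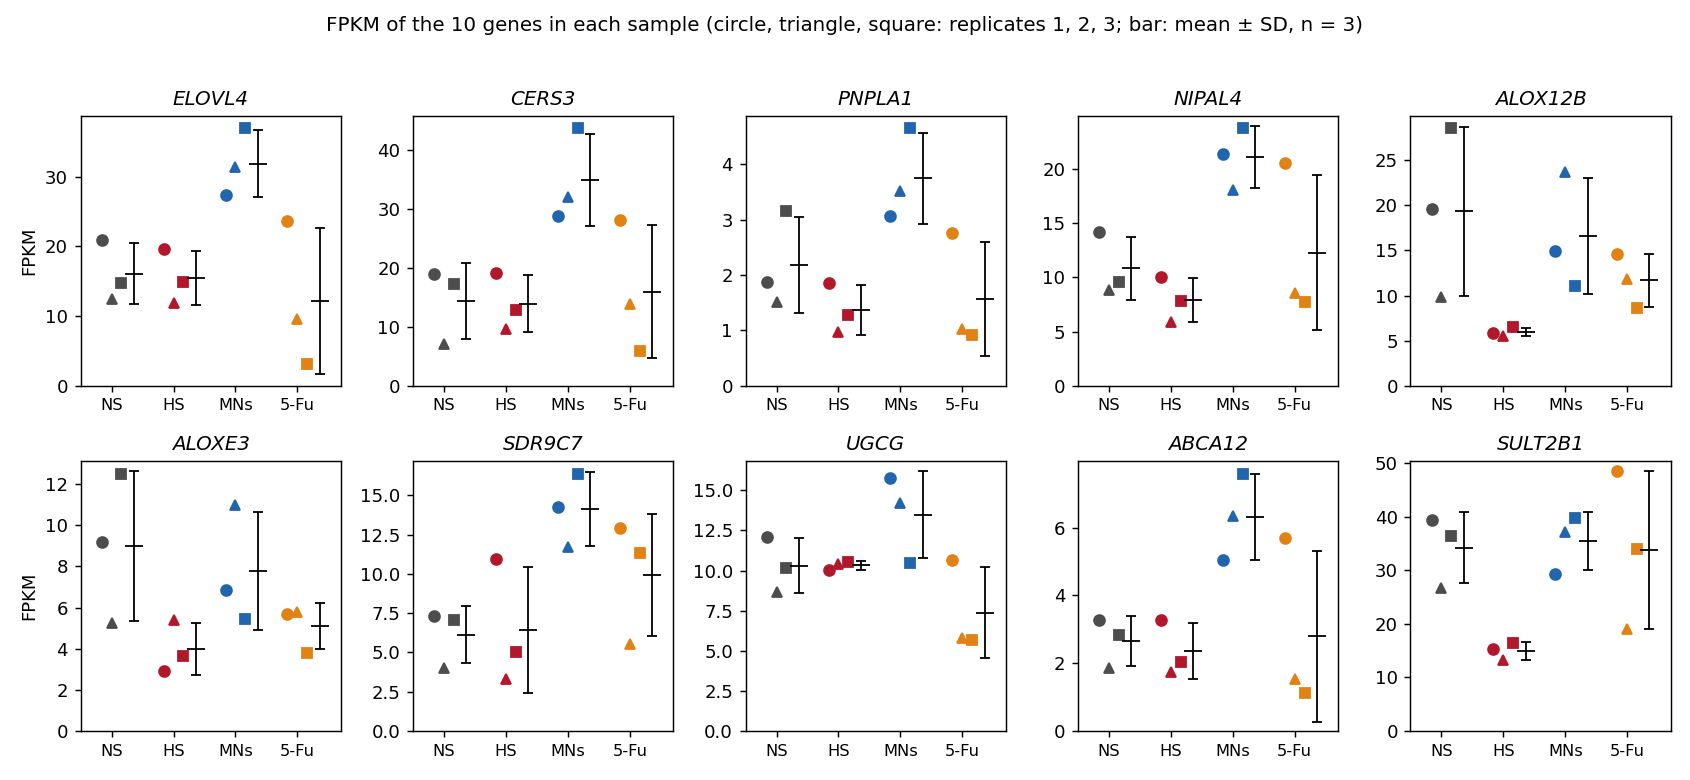
FPKM of each gene (vertical axis, linear from 0) in NS, HS, drug-loaded MNs (MNs) and 5-Fu injection (5-Fu), with circles, triangles and squares for replicates 1, 2 and 3 and a bar for the mean ± SD (n = 3). In 9 of the 10 panels all 3 MNs samples lie above all 3 HS samples, and in most panels 5-Fu replicate 1 lies far above replicates 2 and 3.

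The first comparison asked how untreated scar differed from normal skin in these genes. ALOX12B and SULT2B1 fell in HS relative to NS, with means 3.24-fold and 2.29-fold lower, and the other 8 genes did not pass the test. The test was limma on log2(FPKM + 1), and a gene was called at a Benjamini-Hochberg adjusted p under 0.05 over all 13287 genes tested with a log2 fold change beyond 1 in either direction. By this rule 2 of 10 genes were called, both lower, where 5.00% of all tested genes were called and 1.48% were called lower.

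ALOX12B had FPKM values of 19.6, 9.81 and 28.6 in NS and of 5.86, 5.52 and 6.50 in HS. The lowest NS sample, replicate 2, was still above the highest HS sample, so the groups did not overlap. The log2 fold change was -1.43 (standard error 0.35, limma adjusted p = 0.0327). SULT2B1 had values of 39.4, 26.7 and 36.5 in NS and of 15.2, 13.2 and 16.4 in HS, again without overlap and with a narrow range in the scar. Its log2 fold change was -1.13 (standard error 0.28, limma adjusted p = 0.0353). At an unadjusted p under 0.05 there were 3 of 10 genes, against 23.4% of all tested genes. ALOX12B and SULT2B1 were 2 of 10 genes without overlap in the lower direction, where 15.3% of all tested genes had none.

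ALOXE3, the neighbour and partner of ALOX12B, had values of 9.20, 5.26 and 12.5 in NS and of 2.93, 5.41 and 3.63 in HS. Here NS replicate 2 and HS replicate 2 overlapped. The log2 fold change was -0.96 (standard error 0.32) and did not pass the test (limma adjusted p = 0.0966). Without NS replicate 2 it was -1.26 and was called (limma adjusted p = 0.0476).

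The genes of acylceramide synthesis and transport, and SDR9C7, showed no detectable difference between HS and NS, with wide intervals. CERS3 had values of 19.0, 7.04 and 17.2 in NS and of 19.2, 9.68 and 12.9 in HS, which overlap almost fully. Its log2 fold change was 0.01, with a 95% interval from -1.07 to 1.09. ELOVL4 was at -0.05 (interval -1.13 to 1.03), SDR9C7 at -0.04 (-0.88 to 0.80) and ABCA12 at -0.13 (-0.97 to 0.72). UGCG was measured more tightly, at 0.01 with an interval from -0.49 to 0.52. The signs of CERS3, ELOVL4, SDR9C7, ABCA12 and UGCG each turned under some other setting or with a sample left out. PNPLA1 and NIPAL4 lay between, both at -0.41 (limma adjusted p of 0.454 and 0.491).

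The median log2 fold change of the 10 genes was -0.27, and that of all tested genes was -0.01. With fewer samples, 0 of the 10 genes were called without HS replicate 1, 2 or 3 or without NS replicate 1 or 3. In those fits the log2 fold changes stayed between -1.49 and -1.10 for ALOX12B and between -1.19 and -1.02 for SULT2B1. Both calls were also lost when genes of low FPKM were tested too (limma adjusted p of 0.0607 for ALOX12B and 0.0612 for SULT2B1), and that of ALOX12B with limma voom on the reads (adjusted p = 0.0518) or with only the HS and NS samples in the limma fit (adjusted p = 0.0574). The limma voom fit used the library sizes implied by the FPKM.

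The second comparison asked how scar treated with drug-loaded MNs differed from untreated scar. Levels were higher after drug-loaded MNs in each of the 10 genes, with ratios of the means from 1.31 for UGCG to 2.78 for ALOX12B, although 2 of 10, ALOXE3 and UGCG, were lower once set relative to basal keratinocyte markers, as were 96.2% of all tested genes. Relative to differentiated keratinocyte markers 10 of 10 were lower, as were 99.0% of all tested genes. Those 15 differentiated markers had a median log2 fold change of 1.39 in this comparison, above that of the 10 genes, and their part in it was not tested. None passed the test, however: 0 of 10 were called, where 0.00753% of all tested genes were called, and the limma adjusted p ranged from 0.239 to 0.704. An unadjusted p under 0.05 was reached by 8 of 10 genes, against 8.90% of all tested genes, and limma voom on the reads also called 0. With DESeq2 on counts and thresholds of the same size, the study reported many more changed genes in this comparison and between the treatments. The counts called here are therefore those of the limma tests.

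In 9 of the 10 genes all 3 drug-loaded MNs samples lay above all 3 HS samples, where 8.53% of all tested genes did so. UGCG was the exception. The median log2 fold change of the 10 genes was 1.14, and that of all tested genes was -0.02. Of the 500 highest log2 fold changes among all tested genes, 8 belonged to these 10 genes.

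Among the genes of acylceramide synthesis, ELOVL4 had values of 19.6, 11.9 and 14.8 in HS and of 27.4, 31.4 and 36.9 after drug-loaded MNs. CERS3 had 28.8, 32.0 and 43.7 after drug-loaded MNs, all above its highest HS value of 19.2. Their log2 fold changes were 1.02 (standard error 0.49, limma adjusted p = 0.588) and 1.29 (standard error 0.49, limma adjusted p = 0.490).

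PNPLA1, the least abundant of the 10, had values of 1.86, 0.968 and 1.28 in HS and of 3.07, 3.51 and 4.66 after drug-loaded MNs. NIPAL4 had 10.0, 5.92 and 7.86 in HS and 21.4, 18.1 and 23.8 after drug-loaded MNs. For both genes the lowest treated sample was well above the highest HS sample. NIPAL4 had the largest log2 fold change of the 10 genes, 1.32 (standard error 0.32, limma adjusted p = 0.240), and PNPLA1 was at 1.01 (limma adjusted p = 0.339).

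The genes of acylceramide oxidation were also higher, with the groups close for ALOXE3 and SDR9C7. ALOX12B had values of 15.0, 23.7 and 11.1 after drug-loaded MNs, and ALOXE3 had 6.86, 11.0 and 5.46. Replicate 2 was the highest of the group for both lipoxygenases. The lowest ALOXE3 value after drug-loaded MNs, 5.46, was barely above the highest HS value of 5.41. The log2 fold changes were 1.28 for ALOX12B (limma adjusted p = 0.310) and 0.79 for ALOXE3 (limma adjusted p = 0.514). SDR9C7 had 10.9, 3.29 and 5.06 in HS and 14.3, 11.7 and 16.4 after drug-loaded MNs, and its log2 fold change was 1.15 (limma adjusted p = 0.412).

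Of the genes of lipid transport and sulfation, ABCA12 had values of 3.28, 1.75 and 2.04 in HS and of 5.03, 6.33 and 7.58 after drug-loaded MNs. SULT2B1 had 29.4, 37.2 and 39.8 after drug-loaded MNs, all above its highest HS value of 16.4 and within or near its NS values. Its log2 fold change of 1.19 (standard error 0.28) had a limma adjusted p of 0.239, and of 0.0486 in a fit of these groups alone, where it was called. UGCG overlapped, with 10.0, 10.4 and 10.6 in HS and 15.8, 14.2 and 10.5 after drug-loaded MNs.

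**Figure D2:**
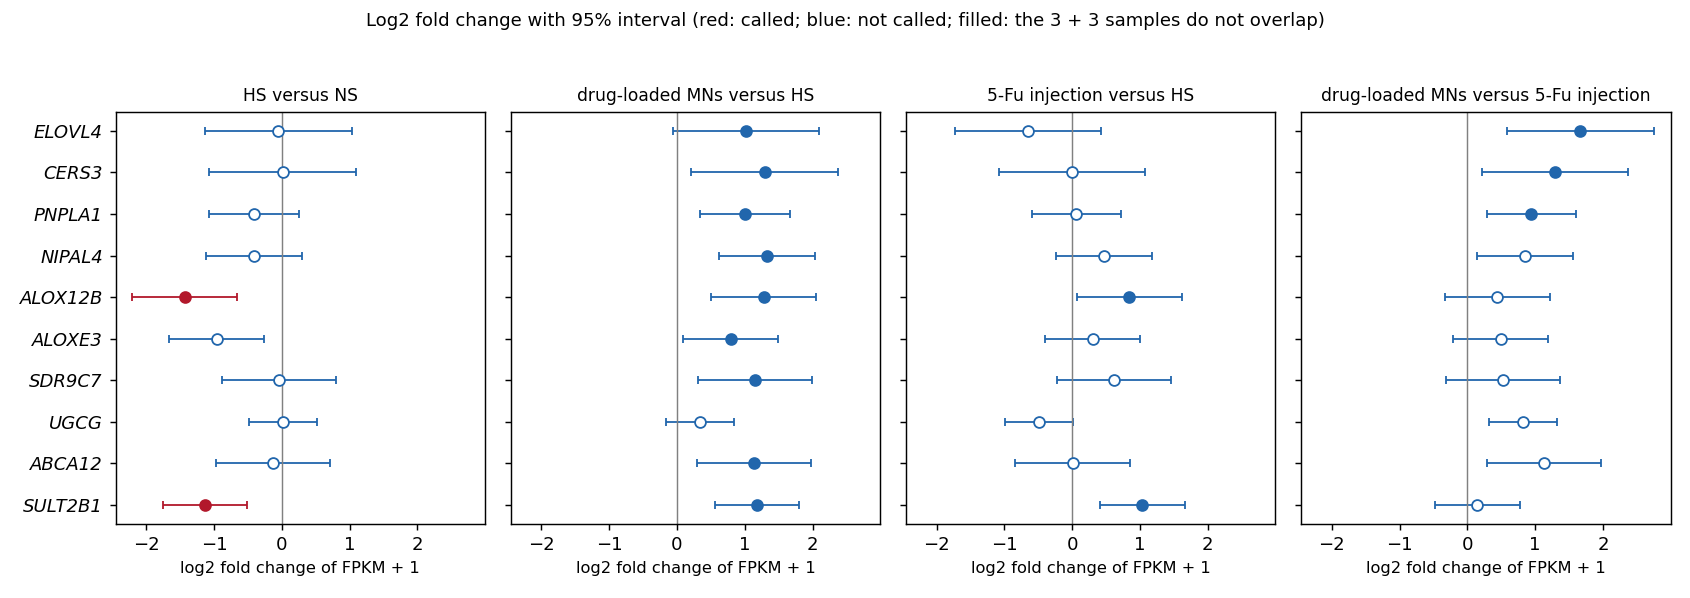
Log2 fold change on the log2(FPKM + 1) scale (horizontal axis) with its 95% interval for each gene in 4 comparisons, in red where called and in blue where not, filled where the 3 samples of each group do not overlap. ALOX12B and SULT2B1 are red in HS versus NS, and the 10 estimates for drug-loaded MNs versus HS lie to the right of 0.

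The third comparison set scar injected with 5-Fu against untreated scar, the same HS samples as above. It called 0 of 10 genes, where 2.29% of all tested genes were called. At an unadjusted p under 0.05 there were 2 of 10, against 26.0% of all tested genes, and limma voom called 0. The log2 fold changes ran from -0.65 for ELOVL4 to 1.04 for SULT2B1 with a median of 0.18, and that of all tested genes was 0.02.

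In 2 of 10 genes, SULT2B1 and ALOX12B, the injected samples all lay above the HS samples, where 13.9% of all tested genes did so. SULT2B1 had values of 48.5, 19.0 and 34.0 after the injection, with replicate 2 the closest to HS. Its log2 fold change of 1.04 (standard error 0.28) narrowly missed the test (limma adjusted p = 0.0605). Without 5-Fu injection replicate 2 it was 1.39 and was called (limma adjusted p = 0.00701). ALOX12B had values of 14.6, 11.8 and 8.64, and its log2 fold change of 0.84 did not pass (limma adjusted p = 0.163).

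The injected samples differed widely among themselves. ELOVL4 had values of 23.7, 9.55 and 3.18, so that replicate 1 was above every HS sample and replicates 2 and 3 below every HS sample. CERS3 had 28.1, 13.9 and 5.84, and ABCA12 had 5.70, 1.55 and 1.12. Replicate 1 was the highest in both, and replicate 3 the lowest. NIPAL4 had 20.5, 8.60 and 7.74, PNPLA1 had 2.76, 1.03 and 0.911, and UGCG had 10.6, 5.79 and 5.66. In these 3 genes too replicate 1 stood above the other two. Replicate 1 also stood apart in the summed FPKM of 6 chondrocyte markers, which was 5370, 361 and 882 in the injected samples, and the part of tissue make-up in this spread was not tested. SDR9C7, at 12.9, 5.55 and 11.3, and ALOXE3, at 5.71, 5.79 and 3.81, had other orders.

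The fourth comparison set the treatments against each other. Levels were higher after drug-loaded MNs than after 5-Fu injection in each of the 10 genes by log2 fold change, from 0.15 for SULT2B1 to 1.67 for ELOVL4, with a median of 0.84. In this comparison 0 of 10 genes were called by limma or by limma voom, and 0.00% of all tested genes were called by limma. At an unadjusted p under 0.05 there were 6 of 10, against 15.1% of all tested genes. The sign of SULT2B1 turned without 5-Fu injection replicate 2 and relative to basal keratinocyte markers. The differentiated keratinocyte markers were also higher after drug-loaded MNs, in 15 of 15 and with a median of 0.62. Relative to them 6 of the 10 genes were higher and 4 lower, with a median of 0.06, beside -0.78 for all tested genes.

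In ELOVL4, CERS3 and PNPLA1 the lowest drug-loaded MNs sample was above the highest injected sample, 3 of 10 genes where 8.64% of all tested genes did so. Their log2 fold changes were 1.67 (95% interval 0.58 to 2.75, limma adjusted p = 0.250), 1.30 (0.22 to 2.38, limma adjusted p = 0.292) and 0.94 (0.29 to 1.60, limma adjusted p = 0.250). For ALOX12B and SULT2B1 the intervals ran from -0.34 to 1.21 and from -0.47 to 0.77, so differences in either direction remained possible.

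Against NS, 0 of 10 genes were called after drug-loaded MNs, where 0.873% of all tested genes were called, and 4 had an unadjusted p under 0.05, against 12.9%. The median log2 fold change was 0.76, and in 5 of 10 genes the treated samples lay wholly above NS, where 11.5% of all tested genes did. The differentiated keratinocyte markers had a median of 0.70 in this comparison, and relative to them the median of the 10 genes was -0.02, with 5 higher and 5 lower, beside -0.77 for all tested genes. After 5-Fu injection 0 of 10 genes were called against NS, where 0.00753% of all tested genes were called, and 0 had an unadjusted p under 0.05, against 14.9% of all tested genes. In 0 of 10 did the injected samples lie wholly above NS, where 9.60% of all tested genes did. Their median was -0.23, and -0.65 without 5-Fu injection replicate 1.

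**Figure D3:**
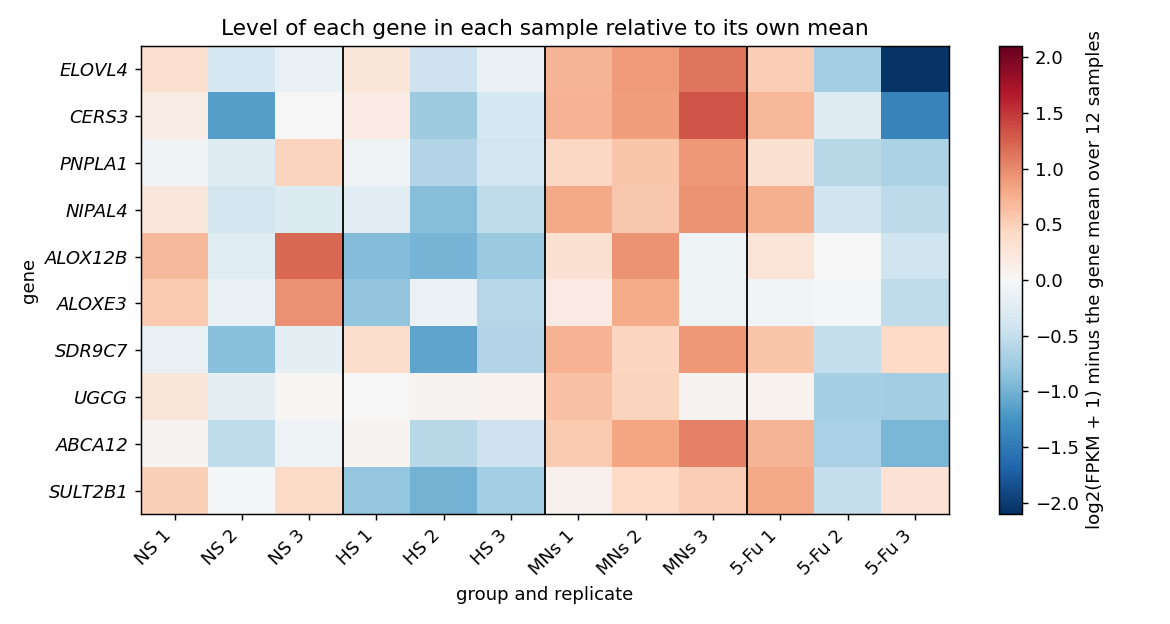
Colour gives log2(FPKM + 1) of each gene (rows) in each sample (columns, by group and replicate) minus the gene's mean over the 12 samples, red above and blue below. Drug-loaded MNs samples and 5-Fu replicate 1 are mostly red, and replicates 2 and 3 of both HS and 5-Fu mostly blue. HS replicate 1 is evenly split, and ALOX12B and ALOXE3 are reddest in NS replicate 3.

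Averaged over the 10 genes, the level relative to each gene's mean showed the same division of samples. This average was 0.51, 0.68 and 0.66 on the log2 scale after drug-loaded MNs, and -0.20, -0.64 and -0.45 in HS. It was 0.25, -0.42 and 0.23 in NS, where replicate 2 stood below the others. After 5-Fu injection it was 0.47, -0.44 and -0.66, so replicate 1 was near the drug-loaded MNs samples and the other two near HS.

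The genes did not all vary together. Over the 12 samples, which share the group differences, the 45 pairs of genes had Pearson correlations of log2(FPKM + 1) from 0.05 to 0.95 with a median of 0.61, and 12 pairs were above 0.8. ABCA12 was closest to CERS3 (0.95), NIPAL4 (0.93), PNPLA1 (0.92) and ELOVL4 (0.91). These genes of acylceramide synthesis and transport stayed close to each other within groups as well, for example at 0.90 for ABCA12 and CERS3 after the group means were removed. ALOX12B and ALOXE3 were close to each other (0.92, and 0.87 within groups) and had the lowest median correlations with the rest, 0.46 and 0.37. The lowest value was that of ALOXE3 with SDR9C7.

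Ratios of FPKM were also taken, for gene pairs chosen after their values were seen and therefore without a test. The ratio of CERS3 to ALOX12B was 0.971, 0.718 and 0.601 in NS and 3.28, 1.75 and 1.98 in HS. It was 1.93, 1.35 and 3.94 after drug-loaded MNs and 1.93, 1.18 and 0.675 after 5-Fu injection. The NS values were below all HS and drug-loaded MNs values, while the injected samples overlapped both. The ratio of ELOVL4 to SULT2B1 was 0.531, 0.467 and 0.406 in NS and 1.28, 0.902 and 0.904 in HS. With drug-loaded MNs it was 0.931, 0.845 and 0.929, and with the injection 0.489, 0.502 and 0.0935. For this pair all HS and drug-loaded MNs samples were above all NS and injected samples.

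The genes whose pattern over the 12 samples was most like the average of the 10, among 9440 tested genes with a symbol, were POF1B (Pearson correlation 0.96), PAQR5 (0.95), RORA (0.93), PLA2G2F (0.92) and PLA2G3 (0.92). POF1B, an actin-binding protein of epithelial cell junctions, had FPKM means of 21.6 ± 10.2 in NS samples and 14.1 ± 0.284 in HS samples (± SD, n = 3 each). It was at 45.1 ± 9.65 in drug-loaded MNs samples and at 16.3 ± 14.6 in injected ones. PLA2G2F, a secreted phospholipase of the outer epidermis, was at 10.4 ± 3.38, 5.72 ± 0.898, 16.0 ± 2.32 and 9.00 ± 4.64 in the same order.

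Other genes of the lipid pathway were taken from 3 lists, which were written with earlier results of these data known. Of 9 further genes of sphingoid base and ceramide synthesis, 12 of fatty acid elongation, hydroxylation and activation and 15 of lamellar body processing and ceramide turnover, 0 were called in HS versus NS, in either treatment versus HS, or between the treatments. Of all tested genes 5.00%, 0.00753%, 2.29% and 0.00% were called in HS versus NS, drug-loaded MNs versus HS, 5-Fu injection versus HS and between the treatments. The medians for HS versus NS were -0.16, 0.16 and -0.01. For drug-loaded MNs versus HS they were 0.14, 0.14 and 0.15, beside 1.14 for the 10 barrier genes.

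Single members of these lists had log2 fold changes as large as those of the 10 genes without passing the test. SPTLC3, a subunit of the enzyme that starts sphingolipid synthesis, had an FPKM of 15.0 ± 4.23 in NS, 4.81 ± 1.54 in HS and 12.2 ± 3.43 after drug-loaded MNs. Its log2 fold change was -1.47 in HS versus NS (limma adjusted p = 0.0764) and 1.18 in drug-loaded MNs versus HS (limma adjusted p = 0.494). SPTLC3 was called in HS with only the HS and NS samples in the limma fit (adjusted p = 0.0250). FA2H, which hydroxylates fatty acids of ceramides, was at -1.04 in HS versus NS (limma adjusted p = 0.117), and ELOVL6, which elongates shorter fatty acids, was at -0.88 (limma adjusted p = 0.0583, and called at 0.0399 without HS replicate 3). The epoxide hydrolase EPHX3 was at -0.99, the ceramidase ACER1 at -0.97 and UGT8, which puts galactose on ceramide, at -0.93 (limma adjusted p of 0.113, 0.286 and 0.0626). EPHX3 was called without HS replicate 1 (-1.38, limma adjusted p = 0.0320).

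After drug-loaded MNs the largest log2 fold changes against HS in these lists were those of the sphingomyelinase SMPD3 (1.36, limma adjusted p = 0.526), ACER1 (1.34, limma adjusted p = 0.493), PLA2G2F (1.34, limma adjusted p = 0.240) and EPHX3 (1.21, limma adjusted p = 0.324). CYP4F22, which hydroxylates the extremely long fatty acid for acylceramide, was at 0.86 (limma adjusted p = 0.505). PLA2G2F was called with only these groups in the fit (limma adjusted p = 0.0486). After 5-Fu injection EPHX3 was at 1.13 (limma adjusted p = 0.0787) and was called without 5-Fu injection replicate 2 (limma adjusted p = 0.0355). Between the treatments SMPD3 and CYP4F22 were at 1.32 and 1.09 (limma adjusted p of 0.313 and 0.250), higher after drug-loaded MNs.

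Of 13 transcription regulators of the barrier, 2 fell in HS, where 1.48% of all tested genes were called lower. OVOL1, a zinc finger factor of epidermal differentiation, went from 16.7 ± 4.89 in NS to 6.72 ± 0.947 in HS (mean ± SD, n = 3), which is -1.17 on the log2 scale (standard error 0.24, limma adjusted p = 0.0149). CEBPA, a factor that promotes keratinocyte differentiation, went from 42.7 ± 6.38 to 19.5 ± 4.29, which is -1.11 on the log2 scale (standard error 0.26, limma adjusted p = 0.0259). OVOL1 was at 16.6 ± 3.40 after drug-loaded MNs, with a fold change of 1.18 on the log2 scale against HS (limma adjusted p = 0.204), and 7 of the 13 regulators lay wholly above HS in that comparison, where 8.53% of all tested genes did. The HS call of OVOL1 was lost without HS replicate 2 or NS replicate 1 (limma adjusted p of 0.0598 and 0.0641), and that of CEBPA without HS replicate 1 or 3 or NS replicate 1 or 3 (limma adjusted p from 0.0631 to 0.0970). Relative to basal keratinocyte markers OVOL1 and CEBPA were at -0.31 and -0.25 in HS versus NS and were not called. The median of all tested genes there was 0.85. OVOL1 in drug-loaded MNs versus HS was at 0.32 on that scale, beside -0.88 for all tested genes.

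GRHL1, a grainyhead factor of epithelial cells, was at 1.16 in drug-loaded MNs versus HS (limma adjusted p = 0.560). RORA, a nuclear receptor, was at 1.15 (limma adjusted p = 0.420, but called at 0.0486 when the other groups were left out of the fit) and at 1.31 against 5-Fu injection (limma adjusted p = 0.250). After 5-Fu injection OVOL1 had a limma adjusted p of 0.0453 but a log2 fold change of 0.98, under the size required, and it was called with a pseudocount of 0.1 (1.07). NR1H3, the liver X receptor alpha, was at 1.46 (limma adjusted p = 0.0508), with an FPKM of 63.0 ± 38.3 against 19.6 ± 2.00 in HS. NR1H3 was called without genes of a mean FPKM under 5 (limma adjusted p = 0.0439), and OVOL1 and NR1H3 were called without 5-Fu injection replicate 2. It was at -1.22 in drug-loaded MNs versus 5-Fu injection (limma adjusted p = 0.250).

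Keratinocyte markers also differed between the groups. Of 7 basal keratinocyte markers, 3 fell in HS relative to NS, namely KRT5 (log2 fold change -1.34, limma adjusted p = 0.0420), KRT15 (-1.55, limma adjusted p = 0.0248) and COL17A1 (-1.25, limma adjusted p = 0.0357), which are keratins and a collagen of the basal layer. Of all tested genes 1.48% were called lower in that comparison. KRT5 and COL17A1 were also ranked as hub genes by the study from these samples. The summed FPKM of the 7 markers was 1011 to 1283 in NS samples and 455 to 514 in HS samples. It was 828 to 1897 with drug-loaded MNs and 863 to 1593 with the injection. KRT15 was higher after 5-Fu injection than in HS (1.49, limma adjusted p = 0.0426), where 2.29% of all tested genes were called in either direction. That call was lost without any single HS sample or 5-Fu injection replicate 1 or 3, with no filter on low values (limma adjusted p = 0.0757) and when the other groups were left out of the fit (limma adjusted p = 0.0973). COL17A1 was at 1.64 in drug-loaded MNs versus HS (limma adjusted p = 0.188). The calls of KRT5, KRT15 and COL17A1 in HS were lost when any single HS sample, or NS replicate 1 or 3, was left out, and those of KRT5 and KRT15 also without NS replicate 2. With no filter on low values KRT5 and COL17A1 were not called (limma adjusted p of 0.0760 and 0.0627).

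Of 15 markers of differentiated keratinocytes, 0 were called in these comparisons. Their summed FPKM was 2987 to 5074 in NS samples and 1779 to 3055 in HS samples. It was 5502 to 11322 with drug-loaded MNs and 3625 to 8163 with the injection, and 12 of the 15 lay wholly above HS after drug-loaded MNs, where 8.53% of all tested genes did. KRTDAP, a keratinocyte differentiation marker, was at -1.36 in HS versus NS (limma adjusted p = 0.0998, and 0.0430 with quantile normalization, where it was called). Several of these markers, KRT1, KRT10, DSC1 and KRTDAP among them, were also ranked as hub genes by the study from these samples. The suprabasal keratins KRT1 and KRT10 were at 1.84 and 1.78 in drug-loaded MNs versus HS (limma adjusted p of 0.239 and 0.261), and KRTDAP and KRT1 were at 1.58 and 1.50 in 5-Fu injection versus HS (limma adjusted p of 0.0686 and 0.0706). Both were called there without 5-Fu injection replicate 2 (limma adjusted p of 0.0216 and 0.0490). In drug-loaded MNs versus 5-Fu injection CASP14, a protease of the outer epidermis, was at 2.33 and DSC1, a desmosome protein of the upper layers, at 2.05 (limma adjusted p of 0.294 and 0.250). The mean log2(FPKM + 1) of the 15 markers was 7.27, 6.28 and 6.08 in 5-Fu injection replicates 1, 2 and 3, the same order as the average of the 10 genes.

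Fibroblast markers also differed between the groups. All 5 that were measured, COL1A1, COL1A2, COL3A1, LUM and DCN, rose in HS, where 5.00% of all tested genes were called in either direction and 1.48% were called lower. Their summed FPKM was 2391 to 3365 in NS samples and 37272 to 48613 in HS samples. It was 18833 to 27015 with drug-loaded MNs and 4952, 26633 and 6631 with the injection. In drug-loaded MNs versus HS 0 of the 5 were called, with a median log2 fold change of -0.88. COL1A1, LUM and COL3A1 fell in 5-Fu injection versus HS (-2.69, -2.12 and -1.93, limma adjusted p of 0.0421, 0.0492 and 0.0387), where 2.29% of all tested genes were called in either direction. These calls were lost with any single HS sample or 5-Fu injection replicate 1 or 3 left out, with no filter on low values or with only these groups in the fit. The call of LUM was also lost with a pseudocount of 0.1, without the trend and with limma voom. Of 7 hair follicle markers, whose summed FPKM ran from 52.5 to 1047 over the 12 samples, the stem cell marker LGR5 rose in HS versus NS (3.13, limma adjusted p = 0.00177) and fell in 5-Fu injection versus HS (-2.32, limma adjusted p = 0.0240), beside the same shares of all tested genes. The latter call was lost without any single HS sample, without 5-Fu injection replicate 1 or 3 or with only these groups in the fit. The 6 chondrocyte markers were called in none of these comparisons, with sums of 399 to 4766 in the samples that were not injected. The 4 tested sebocyte markers, of glands that also express lipid enzymes, were called in none of these comparisons, and 7 sebocyte markers summed to an FPKM of only 10.3 to 23.7 in any sample. The part of epidermal content in the differences of the 10 genes was not tested beyond the levels given next.

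Each gene was therefore also expressed relative to the mean log2(FPKM + 1) of the 7 basal keratinocyte markers, a scale chosen after the values were seen. The marker mean was 6.38 ± 0.26 (SD, n = 3) in NS samples, 5.52 ± 0.04 in HS samples, 6.38 ± 0.39 with drug-loaded MNs and 6.12 ± 0.16 with the injection. The scale moved the median of all tested genes by about as much in the other direction, to 0.85 in HS versus NS and -0.88 in drug-loaded MNs versus HS. On it, ALOX12B, SULT2B1 and ALOXE3 were still lower in HS than in NS, at log2 differences of -0.57, -0.27 and -0.10, where 6.34% of all tested genes were lower. None of them was called, where 33.9% of all tested genes were called on this scale. The other 7 genes were higher in HS, the largest difference being 0.87 for UGCG (limma adjusted p = 0.0406, under the size required).

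In drug-loaded MNs versus HS the median log2 difference of the 10 genes on this scale was 0.28, and in 0 of the 10 did the groups separate, where they did in 72.6% of all tested genes, with ALOXE3 and UGCG lower at -0.06 and -0.52. In 5-Fu injection versus HS the median was -0.42, beside -0.58 for all tested genes, and 7 genes were lower, as were 88.2% of all tested genes. There 1 of the 10 was called, UGCG (-1.09, limma adjusted p = 0.0358), where 17.1% of all tested genes were called. Relative to the mean of the differentiated keratinocyte markers instead, a scale also chosen after the values were seen, ALOX12B and SULT2B1 were at -0.83 and -0.53 in HS versus NS. They were the 2 of 10 genes wholly below NS, where 1.24% of all tested genes were. ABCA12, CERS3, ELOVL4 and SDR9C7 lay wholly above NS, 4 of 10 where 28.6% of all tested genes did. The median of the 10 genes was 0.34 and that of all tested genes 0.59. On the same scale 10 of 10 genes were lower after drug-loaded MNs than in HS, as were 99.0% of all tested genes. The median was -0.24 for the 10 genes and -1.40 for all tested genes, since the marker mean itself went from 5.94 to 7.32. Of the 10 genes 3 lay wholly below HS, where 83.3% of all tested genes did.

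**Figure D4:**
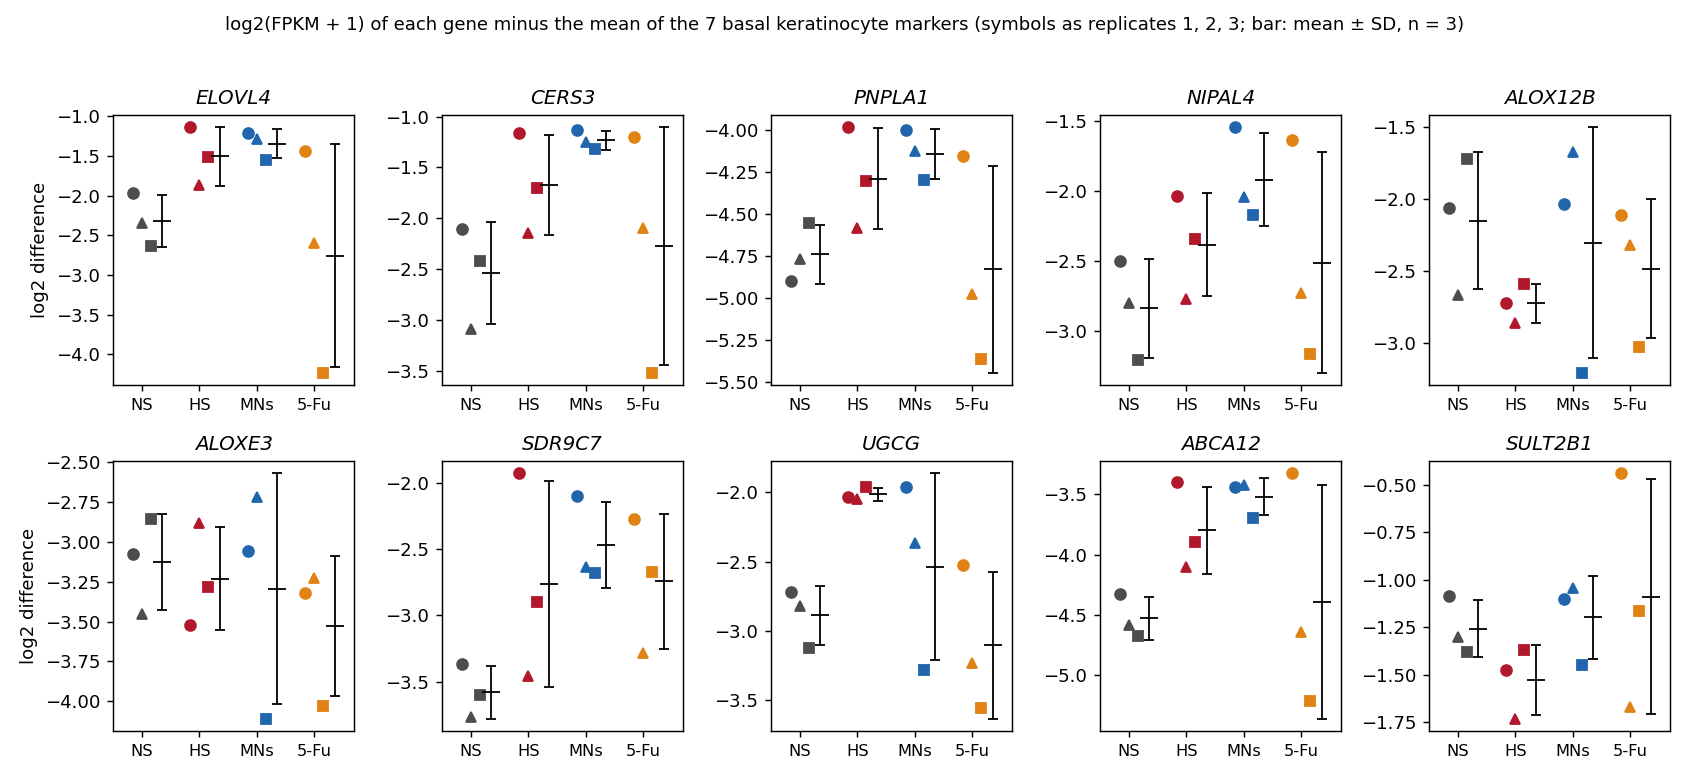
Log2(FPKM + 1) of each gene minus the mean of the 7 basal keratinocyte markers (vertical axis, log2 units) by group, with circles, triangles and squares for replicates 1, 2 and 3 and a bar for the mean ± SD (n = 3). The drug-loaded MNs and HS samples overlap in all 10 panels, and the mean of UGCG is highest in HS.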

How the data were processed

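The authors selected mRNA by its poly-A tail, compared groups with DESeq2 on counts, and deposited 1 table of FPKM values, used here, whose gene names, lengths and positions were taken as given. The aligner, the counting tool and the genome build are not given in the sources used here. Each FPKM multiplied by gene length was a whole multiple of a step per sample (tolerance 0.05), which gave back the number of reads. For a 1 kilobase gene, a single read stood for an FPKM of 0.0768 to 0.0972.

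Samples were grouped by their labels. Values were taken as log2(FPKM + 1), which understates the change of genes with low values, and 13287 genes (mean FPKM of 1 or more) entered limma 3.58.1 (R 4.3.3), with 1 fit of 12 samples in 4 groups, empirical Bayes moderation along a trend in mean level, and Benjamini-Hochberg adjusted p-values for each comparison. Calls needed an adjusted p under 0.05 with a log2 fold change beyond 1 either way. The procedure was tested on simulated data. The labels do not name the animal of each sample, so p-values measure the spread between samples.

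The 10 genes and the lists were chosen with earlier results of these data known. Named genes are the 10, the list genes that were called, some list genes with large changes that were not called, and the 5 genes most correlated with the mean of the 10. The spelling SULT2B1 is that of the table. Lists were matched by symbol, so members without one were left out. Promoter sequences and motifs were not analysed here. Alternatives covered pseudocount 0.1, no filter, a mean FPKM of at least 5 (which drops ABCA12 and PNPLA1), quantile normalization, rescaling to the same sum of FPKM, only the groups compared, no trend, the replicate number as a block, limma voom on the reads, each sample left out, and, added after seeing the values, levels relative to basal or differentiated keratinocyte markers. Because limma voom was given the library sizes implied by the FPKM, it was not a check on their scaling.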

Additional observations from a re-analysis of the deposited data

How the results depend on the processing

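The number of the 10 genes called in HS versus NS, 2, became 0 with no filter on low values, 1 with only the groups compared, 1 with limma voom on the reads and 0 relative to the basal keratinocyte markers, and ranged from 0 to 3 with single samples left out. It became 1 in drug-loaded MNs versus HS with only the groups compared, and 1 in 5-Fu injection versus HS relative to the basal keratinocyte markers, with a range of 0 to 1 when samples were left out. Same-numbered samples came from separate rabbits, so the numbers do not pair them. The correlations of their deviations from the group means ran from -0.27 to 0.44, the highest being that of replicate 2 of drug-loaded MNs and HS. With the replicate number as a block 1 gene was called in HS versus NS, and the other counts for the 10 genes stayed at 0. The block also ended the calls of CEBPA in HS versus NS (adjusted p = 0.0554) and of KRT15, COL1A1, LUM and COL3A1 in 5-Fu injection versus HS (0.0521 to 0.0799), and KRTDAP was called with it in HS versus NS (0.0476). Relative to the basal keratinocyte markers the median log2 fold changes of the 10 genes became 0.59 (HS versus NS), 0.28 (drug-loaded MNs versus HS) and -0.42 (5-Fu injection versus HS), and relative to the differentiated ones 0.34, -0.24 and -0.42, with 0.0588 between the treatments and -0.0173 in drug-loaded MNs versus NS. On the basal scale the signs turned in HS versus NS for ABCA12 (0.73), PNPLA1 (0.45), NIPAL4 (0.45), ELOVL4 (0.81) and SDR9C7 (0.82), in drug-loaded MNs versus HS for ALOXE3 (-0.0638) and UGCG (-0.52), in 5-Fu injection versus HS for ABCA12 (-0.60), ALOXE3 (-0.30), PNPLA1 (-0.54) and NIPAL4 (-0.13), and between the treatments for SULT2B1 (-0.11). Rescaling to the same sum of FPKM moved the median of all tested genes to -0.15 in 5-Fu injection versus HS, to 0.16 between the treatments and to -0.25 in 5-Fu injection versus NS, and it turned CERS3 (-0.0746) and UGCG (-0.0715) in HS versus NS and ABCA12 (-0.12) and PNPLA1 (-0.0507) in 5-Fu injection versus HS. In that comparison ABCA12 also turned with pseudocount 0.1 (-0.0669), quantile normalization (-0.0030) and limma voom (-0.0506), and CERS3 with quantile normalization (0.0382). With single samples left out, log2 fold changes in HS versus NS ranged from -0.32 to 0.00395 for ABCA12, -0.40 to 0.25 for CERS3, -0.23 to 0.15 for ELOVL4, -0.45 to 0.29 for SDR9C7 and -0.0934 to 0.12 for UGCG. In 5-Fu injection versus HS they ranged from -0.50 to 0.33 for ABCA12, -0.51 to 0.53 for CERS3 and -0.25 to 0.24 for PNPLA1, and between the treatments from -0.20 to 0.45 for SULT2B1. The median in 5-Fu injection versus NS ranged from -0.65 to -0.10. Apart from the added scale, the turns were in differences that did not pass the test, and the causes were not tested. At the lowest read number of the 10 genes, 49 for PNPLA1, counting error alone was 14.3%.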
